A study of Mus musculus with 9 samples.

Results

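The C/EBP proteins and the factors of the integrated stress response were followed at the transcript level in RAW 264.7 cells, a mouse macrophage line. The 10 genes were Cebpa, Cebpb, Cebpd, Cebpg, Ddit3, Atf3, Atf4, Atf5, Trib3 and Ppp1r15a. Every probe set to which the platform annotation gives one of these symbols and no other gene was taken. That gave 17 probe sets for 10 genes, out of 22626 probe sets and 12393 named genes tested. In the mouse assembly GRCm38.p6 Cebpa, Cebpg, Atf5 and Ppp1r15a lie on chromosome 7, Cebpb and Trib3 on chromosome 2, Atf3 on 1, Ddit3 on 10, Atf4 on 15 and Cebpd on 16. Total RNA had been hybridised to 9 Affymetrix arrays, 3 for each of the groups untreated, LPS (bacterial lipopolysaccharide at 100 ng/ml for 18 h) and CstF-64. The last group is labelled as cells that constitutively overexpress CstF-64, a protein of mRNA 3' end formation encoded by Cstf2. The labels do not describe the construct, a control population for it, or whether the 3 arrays of a group came from separate cultures, so p-values measure only the spread between these arrays, which may be technical.

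C/EBP proteins are leucine zipper transcription factors that bind DNA as dimers. In macrophages C/EBPα supports myeloid differentiation and holds back proliferation, while C/EBPβ and C/EBPδ are induced by inflammatory signals. C/EBPγ and CHOP, the product of Ddit3, dimerise with other family members and can limit their activity. In the integrated stress response, kinases that sense endoplasmic reticulum stress, amino acid shortage, haem shortage or double-stranded RNA phosphorylate the translation factor eIF2α. General translation then falls, and translation of ATF4 rises, which in turn activates genes such as Ddit3, Atf3, Trib3 and Ppp1r15a. Because ATF4 is controlled largely in translation, an array of mRNA reads only part of this pathway.

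Values below are deposited intensities on a linear scale. Log2 changes are differences of log2(intensity + 13), which understate the change of dim probe sets, and come from one limma fit to all 9 arrays. "Rose" and "fell" mean a Benjamini-Hochberg adjusted p below 0.05 over all 22626 probe sets. A gene is counted by its main probe set, the one with the highest mean over the 9 arrays. Bacillus control probe sets, which should bind no mouse RNA, reached at most 31.2, and this value served as the background limit. The main probe sets of all 10 genes read above it on at least 1 array. In bulk RNA, fewer cells that express a gene and less RNA per cell cannot be told apart.

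The arrays differed in a few ways that bear on these genes. LPS array 1 and CstF-64 array 1 correlated least with the other arrays of their groups, at a mean r of 0.966 and 0.975 across probe sets, against 0.977 to 0.985 for the others. CstF-64 array 1 correlated slightly more with the untreated arrays, at a mean r of 0.979, than with its own group. The targeted gene did not bear out its label: the main probe set of Cstf2 read 363.1 to 397.8 in the untreated arrays and 317.9 to 394.5 in the arrays labelled CstF-64, and a dimmer one 100.2 to 134.1 and 80.4 to 97.1. In the LPS arrays the main probe set read 195.9 to 248.1 and fell (log2 -0.74, limma adjusted p = 0.00343). It was thus higher in the arrays labelled CstF-64 than in the LPS arrays (log2 0.66, limma adjusted p = 0.0066). The dimmer one was not called in these comparisons. Whether these probe sets match the transcript of the construct is not stated in the labels. Of 10 macrophage markers, 9 or 10 exceeded the background limit in each group, with summed intensities of 14765 to 19620 in untreated arrays, 20236 to 22051 in LPS arrays and 15391 to 19459 in the arrays labelled CstF-64. After LPS 4 of these markers rose and 1 fell, where 6.67% of all named genes rose and 10.4% fell. The lists for granulocytes (7 genes measured), lymphocytes (8) and fibroblasts and endothelium (8) summed to at most 261.7, 142.8 and 244.9 on any array, and none of these genes was at 0 throughout a group. One of them, the fibroblast proteoglycan Dcn, rose after LPS to 47.5 ± 13.7 (SD, n = 3), at least 1.48-fold, the untreated arrays being set to the background limit (limma adjusted p = 0.00108). The part of these markers in the results below was not tested.

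**Figure D1:**
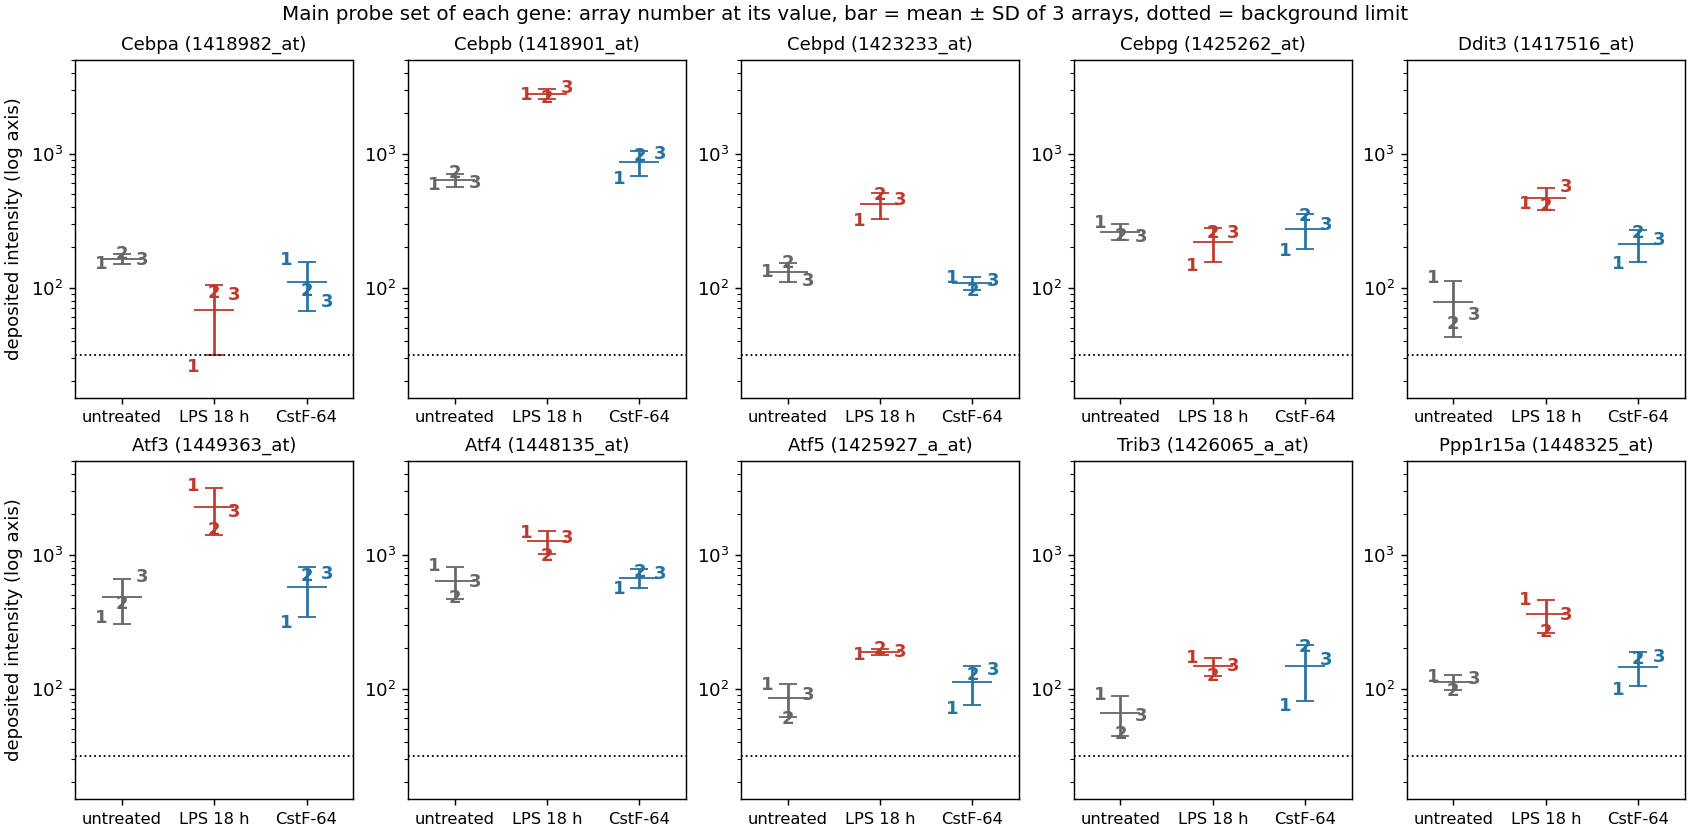
Deposited intensity (log axis) of the main probe set of each gene in the untreated, LPS and CstF-64 arrays. Digits are array numbers placed at their value, bars are the mean ± SD of 3 arrays and the dotted line is the background limit of 31.2. Cebpb, Cebpd, Ddit3, Atf3, Atf4, Atf5, Trib3 and Ppp1r15a lie higher in all LPS arrays than in any untreated array, and Cebpa lies lower.

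After 18 h of LPS, 7 of the 10 genes rose and 1 fell. Over all named genes 6.67% rose and 10.4% fell. The genes that rose were Cebpb, Cebpd, Ddit3, Atf3, Atf4, Atf5 and Ppp1r15a, and the gene that fell was Cebpa. Trib3 was higher on every LPS array but missed the threshold, and the main probe set of Cebpg did not separate the groups. The median log2 change was 1.31 over the 10 genes and -0.03 over all named genes. The LPS and untreated arrays did not overlap for 9 of the 10 genes, against 33.9% of all named genes. An unadjusted p below 0.05 was reached by 9 of the 10 and by 29% of all named genes. Of the 17 probe sets 11 rose and 1 fell, against 5.93% and 10.7% of all probe sets. Among all called probe sets 35.7% were thus higher, a share that was 59.7% after median centring and 46.2% after quantile normalization. Without untreated array 2, 5 of the 10 rose, since Atf4 and Atf5 were no longer called.

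Within the C/EBP family the members moved in different directions. Cebpb read 587.1, 721.8 and 603.1 in the untreated arrays and 2737.7, 2612.3 and 3087.9 in the LPS arrays. Its lowest LPS array was thus well above its highest untreated array, and the 3 LPS arrays lay close together. The log2 change was 2.12 (SE 0.17, limma adjusted p = 3.53e-05). A dimmer Cebpb probe set, 1427844_a_at, rose by the same measure by 2.30 (SE 0.23, limma adjusted p = 0.000142), with 123.3 to 179.4 in untreated and 797.2 to 866.1 in LPS arrays. The probe sets of Cebpb therefore gave the same picture, and Cebpb was among the brightest of the 10 genes, its main probe set lying above 97.5% of all probe sets in mean intensity.

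Cebpd, which encodes an acute-phase partner of C/EBPβ, read 129.8, 153.4 and 111.8 untreated and 313.0, 489.8 and 450.1 after LPS. All LPS arrays were higher, with LPS array 1 the lowest of them. The log2 change was 1.56 (SE 0.19, limma adjusted p = 0.000423). Its dimmer probe set, 1456605_at, changed by 0.74 (SE 0.19, limma adjusted p = 0.0253), from 60.9 ± 13.9 to 110.6 ± 20.1 (SD, n = 3). Both probe sets rose, the brighter one by more. The test for unequal change of the probe sets of a gene (limma's diffSplice) gave an adjusted p = 0.0835 for Cebpd.

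Cebpa, the family member tied to differentiation and growth arrest, went the other way. The untreated arrays read 150.9, 177.9 and 161.4, and the LPS arrays 25.5, 91.0 and 87.4. LPS array 1 stood far below the other LPS arrays and below the background limit, yet every LPS array was under every untreated array. The log2 change was -1.25 (SE 0.37, limma adjusted p = 0.0456). This call sat at the threshold: without LPS array 1 the change was -0.78 (limma adjusted p = 0.0686), and without untreated arrays 1, 2 and 3 in turn the adjusted p were 0.0954, 0.131 and 0.107. It was also lost with the replicate number as a block (adjusted p = 0.0706), after median centring and after quantile normalization (adjusted p = 0.107 for each).

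Cebpg, whose protein lacks a strong activation domain of its own, had 3 probe sets that did not move together. The brightest, 1425262_at, read 301.4, 243.2 and 237.7 untreated and 145.1, 254.1 and 253.7 after LPS (log2 -0.28, SE 0.25, limma adjusted p = 0.537). Only LPS array 1 lay below the untreated range there. The second, 1451639_at, read 151.6, 113.8 and 146.8 untreated and 212.5, 174.9 and 230.2 after LPS, and rose (log2 0.54, SE 0.16, limma adjusted p = 0.0398). LPS array 1, the lowest array on the first probe set, was not the lowest on the second. The third, 1425261_at, stayed at or below 24.4 on every array, under the background limit, so no change is given for it. Unequal change of the probe sets was not called (diffSplice adjusted p = 0.156).

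Among the stress response factors, Ddit3, Atf3, Atf4, Atf5 and Ppp1r15a rose and Trib3 was not called. Ddit3, which encodes CHOP, read 118.0, 53.5 and 62.1 in the untreated arrays and 421.0, 408.7 and 568.4 in the LPS arrays. Its log2 change of 2.45 (SE 0.28, limma adjusted p = 0.000311) was the highest of the 10 genes with these settings. With an added constant of 50, Atf3 (2.12) and Cebpb (2.06) exceeded Ddit3 (2.03), as did Atf3 without untreated array 3 (2.48 against 2.34). Untreated array 1 stood above the other untreated arrays, and all LPS arrays lay far above it. Atf3, a repressor of inflammatory genes in macrophages, read 336.8, 429.5 and 677.5 untreated and 3239.1, 1529.0 and 2084.6 after LPS. The spread within both groups was wide, but the groups did not overlap (log2 2.21, SE 0.38, limma adjusted p = 0.0036).

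Atf4, the central factor of the pathway, was already bright in untreated cells and changed less. Its main probe set read 820.6, 474.3 and 626.0 untreated and 1449.8, 977.9 and 1340.9 after LPS (log2 0.97, SE 0.22, limma adjusted p = 0.0137). The lowest LPS array was only a little above the highest untreated array. Without untreated array 2 or LPS array 3 the call was lost, at adjusted p = 0.0523 and 0.052. A second probe set, 1438992_x_at, rose from 281.7 ± 98.7 to 484.8 ± 64.3 (SD, n = 3; log2 0.80, limma adjusted p = 0.0374). In Affymetrix naming the suffix x marks probe sets with probes that may bind other transcripts, so this value is less certain. The third Atf4 probe set, 1439258_at, read at most 7.6 and carried no usable signal.

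Atf5, a relative of ATF4 that is induced by the same stresses, read 106.0, 59.7 and 88.9 untreated and 178.0, 199.1 and 188.7 after LPS. The LPS arrays lay within a narrow band above all untreated arrays (log2 1.07, SE 0.25, limma adjusted p = 0.015). Without untreated array 2 the change was 0.87 and the call was lost (adjusted p = 0.0605).

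The pathway's feedback genes differed in how firmly they were called. Ppp1r15a encodes GADD34, which brings a phosphatase to eIF2α and so ends the response. It read 122.7, 95.6 and 118.6 untreated and 461.2, 265.0 and 355.0 after LPS, with no overlap (log2 1.55, SE 0.24, limma adjusted p = 0.00212). Trib3, a pseudokinase that is induced by ATF4 and CHOP and can inhibit both, read 90.0, 45.7 and 63.0 untreated and 169.0, 123.6 and 147.2 after LPS. Every LPS array was higher, and the log2 change was 1.04 (SE 0.32, limma adjusted p = 0.0561). Trib3 passed the threshold under 6 of 15 alternative settings, with adjusted p from 0.0232 to 0.186 over all 15. The second Trib3 probe set gave 0.95 (SE 0.30, limma adjusted p = 0.0583).

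**Figure D2:**
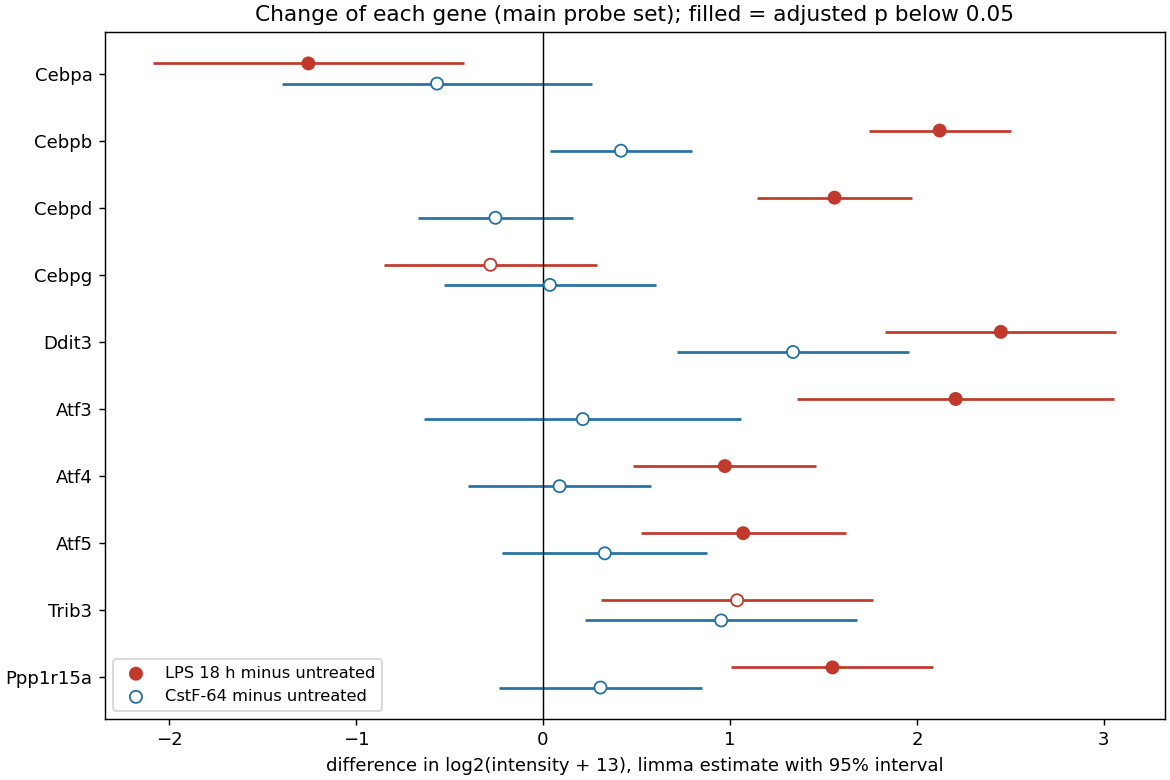
Difference in log2(intensity + 13) against the untreated arrays for the main probe set of each gene, as the limma estimate with its 95% interval. Filled points passed an adjusted p of 0.05. Red points (LPS) reach 2.45 for Ddit3 and -1.25 for Cebpa, and no blue point (CstF-64) is filled.

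The sequence before the transcription start is shown for Atf3, Cebpb, Ppp1r15a and Ddit3, which rose together after LPS and include both C/EBP and stress response genes. Sequences are from RefSeq (assembly GRCm38.p6), 250 bases ending just before the annotated start, on the coding strand. Capitals mark matches, on either strand, to TGACG (the half-site of the cyclic AMP response element, CRE, bound by ATF and CREB proteins), TGACGTCA (the full CRE, which contains the half-site on both strands) or TTGCATCA (a C/EBP-ATF composite element of the kind bound by ATF4 with a C/EBP partner). Atf3 lies at chr1:191183334-191183583 (minus strand), Cebpb at chr2:167688665-167688914 (plus), Ppp1r15a at chr7:45526269-45526518 (minus) and Ddit3 at chr10:127290543-127290792 (plus).
Atf3: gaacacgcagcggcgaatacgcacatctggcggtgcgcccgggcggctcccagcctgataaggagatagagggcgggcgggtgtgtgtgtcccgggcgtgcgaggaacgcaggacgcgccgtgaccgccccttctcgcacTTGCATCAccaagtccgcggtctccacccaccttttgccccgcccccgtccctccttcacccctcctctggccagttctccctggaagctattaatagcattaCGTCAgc
Cebpb: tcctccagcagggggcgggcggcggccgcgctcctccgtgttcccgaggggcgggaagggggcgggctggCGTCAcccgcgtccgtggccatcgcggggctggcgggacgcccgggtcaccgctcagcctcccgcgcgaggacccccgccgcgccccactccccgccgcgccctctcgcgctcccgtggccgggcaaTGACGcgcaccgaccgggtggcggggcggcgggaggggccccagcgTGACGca
Ppp1r15a: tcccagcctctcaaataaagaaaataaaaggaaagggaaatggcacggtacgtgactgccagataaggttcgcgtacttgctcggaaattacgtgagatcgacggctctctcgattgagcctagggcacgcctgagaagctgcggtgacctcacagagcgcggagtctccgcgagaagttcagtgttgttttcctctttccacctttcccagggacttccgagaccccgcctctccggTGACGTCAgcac
Ddit3: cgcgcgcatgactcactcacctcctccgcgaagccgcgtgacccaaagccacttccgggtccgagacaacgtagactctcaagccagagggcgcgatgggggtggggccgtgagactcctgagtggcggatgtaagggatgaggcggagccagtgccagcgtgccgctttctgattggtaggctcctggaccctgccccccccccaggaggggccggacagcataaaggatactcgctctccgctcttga

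Promoters were listed for 9 of the 10 genes, the exception being Cebpd. These had 10 promoters, since Atf5 had more than 1. The half-site TGACG was present in 5 of the 10 (Atf3, Atf4, Cebpb, Ppp1r15a and Trib3), and in 17.8% of all 32851 promoters of the same length. Ppp1r15a held the full CRE, 12 to 5 bases before the start, as did 1.55% of all promoters. The composite element TTGCATCA was found before Atf3, 110 to 103 bases from the start, and in 0.79% of all promoters. TTGCGCAA, a palindromic C/EBP site, was in none of the 9 genes' windows and in 0.16% of all promoters. No match of these letters lay in the Ddit3 window. These are letter matches in a short window and were not tested for binding.

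In the arrays labelled CstF-64, none of the 10 genes was called against untreated cells with limma. Over all named genes 0.274% were called. At an unadjusted p below 0.05 there were 3 of the 10 (Cebpb, Ddit3 and Trib3, all higher), against 6.84% of all named genes. The median log2 change of the 10 was 0.26 and that of all named genes 0.01. For 1 of the 10 genes, Ddit3, the arrays of the groups were fully separated, against 13.4% of all named genes. This comparison uses the same untreated arrays as the LPS comparison, so the directions in the 2 comparisons are not independent.

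Ddit3 came nearest to a call. It read 149.1, 257.6 and 227.6 in the arrays labelled CstF-64, all above the highest untreated value of 118.0. The log2 change was 1.34, with a 95% interval from 0.72 to 1.96 (limma adjusted p = 0.147). Leaving out untreated array 1, the brightest of the untreated arrays for this gene, gave 1.63 and a call (adjusted p = 0.0472). Without CstF-64 array 1 the change was 1.56 (adjusted p = 0.0629), and over all 15 alternatives the adjusted p ran up to 0.505.

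Trib3, a gene downstream of CHOP, read 74.5, 203.4 and 163.2 in the arrays labelled CstF-64. Arrays 2 and 3 exceeded all untreated arrays and array 1 lay among them (log2 0.95, interval 0.23 to 1.68, limma adjusted p = 0.571). Its second probe set read 62.8, 89.8 and 142.6, with array 2 barely above the highest untreated value of 88.9 (log2 0.65, limma adjusted p = 0.804). Cebpb read 649.3, 958.5 and 992.3, again with array 1 among the untreated values (log2 0.42, interval 0.04 to 0.80, limma adjusted p = 0.716). For Trib3 and Cebpb without CstF-64 array 1 the changes were 1.34 and 0.61, with adjusted p = 0.0705 and 0.128. Without array 2 they were 0.69 and 0.33, and without array 3 they were 0.83 and 0.31, again with no call.

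For the remaining genes each interval included 0. Cebpa read 160.4, 94.1 and 77.5 (log2 -0.57, interval -1.40 to 0.26), Atf5 70.7, 125.8 and 138.0 (log2 0.33, interval -0.22 to 0.88), and Ppp1r15a 97.7, 165.6 and 173.0 (log2 0.31, interval -0.23 to 0.85). In each of these, arrays 2 and 3 lay beyond the untreated range and array 1 lay inside it. Atf3 read 307.1, 697.5 and 719.0 (log2 0.21, interval -0.64 to 1.06). Atf4 read 550.8, 744.5 and 718.5 (log2 0.09, interval -0.40 to 0.58), Cebpd 117.1, 93.8 and 112.8 (log2 -0.25, interval -0.67 to 0.16) and Cebpg 187.1, 340.5 and 295.4 (log2 0.04, interval -0.53 to 0.61). For Atf3 array 1 lay below the untreated range and arrays 2 and 3 above it. For Atf4 and Cebpd the arrays labelled CstF-64 overlapped the untreated range, and for Cebpg array 1 lay below it and array 2 above it.

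CstF-64 array 1 thus stood apart from the other arrays of its group in most of these genes. It was the lowest of its group for 8 of the 10 genes and the highest for Cebpa and Cebpd. It lay inside the untreated range for 7 genes, below it for Atf3 and Cebpg, and above it for Ddit3. For 6 of the 10 genes (Cebpb, Ddit3, Atf3, Atf5, Trib3 and Ppp1r15a), arrays 2 and 3 both exceeded every untreated array, which held for 17.7% of all named genes. The 3 arrays carry the same label and the split follows from these same values, so it is a description and the order of arrays has no meaning.

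**Figure D3:**
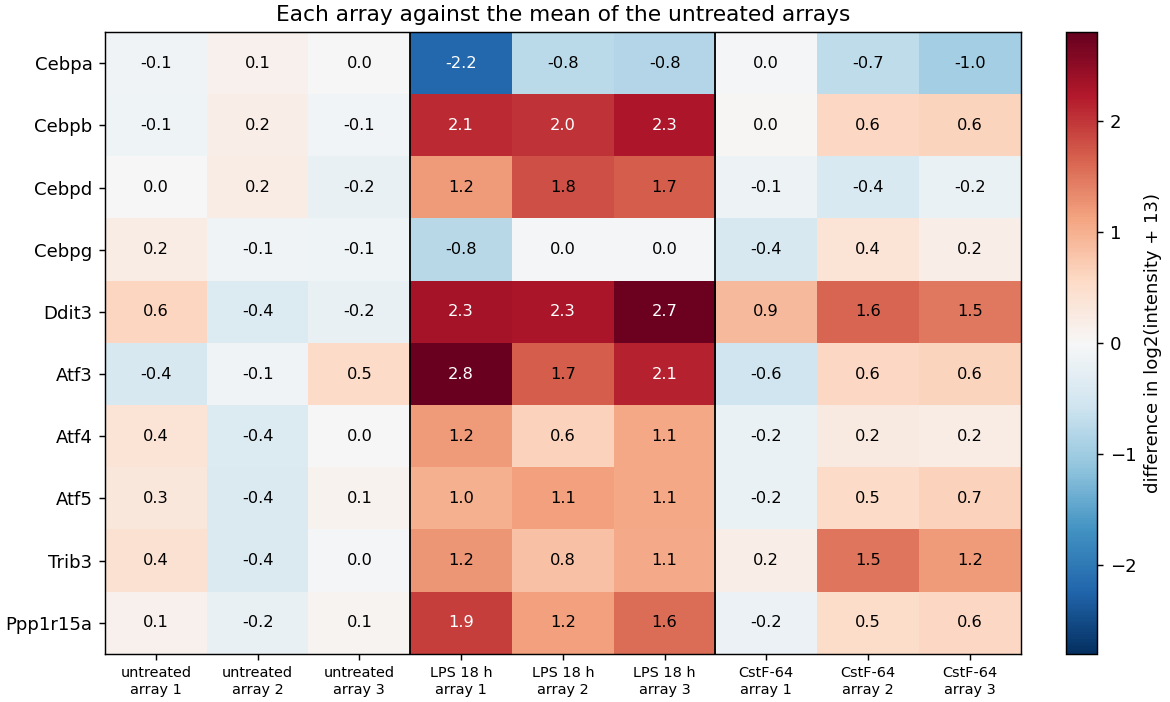
Difference in log2(intensity + 13) of each array from the mean of the untreated arrays, for the main probe set of each gene (rows) and each array (columns). Numbers in the cells are the differences. LPS columns are red for all genes except Cebpa and Cebpg. CstF-64 arrays 2 and 3 are red for Ddit3 and Trib3, while CstF-64 array 1 is closer to the untreated arrays.

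Set directly against the LPS arrays, the arrays labelled CstF-64 were lower for 6 of the 10 genes and higher for none, while over all named genes 6.38% were lower and 9.51% higher, 15.9% in all. The share of called probe sets that were higher was 62.0%, and 38.1% after median centring and 52.3% after quantile normalization. The arrays of the groups were fully separated for 7 of the 10, Atf5 being the seventh (log2 -0.74, limma adjusted p = 0.0742), against 31.7% of all named genes. The 6 genes called lower were Cebpb (log2 -1.70, limma adjusted p = 0.000161), Cebpd (-1.81, adjusted p = 0.00019), Ddit3 (-1.11, adjusted p = 0.0239), Atf3 (-1.99, adjusted p = 0.00655), Atf4 (-0.88, adjusted p = 0.0233) and Ppp1r15a (-1.24, adjusted p = 0.00737). Ddit3 was therefore intermediate, with all arrays labelled CstF-64 above all untreated arrays and below all LPS arrays. The calls of Ddit3 and Atf4 were both lost without LPS array 3, CstF-64 array 1 or CstF-64 array 3, leaving 4 genes lower, with adjusted p from 0.0545 to 0.087. That of Atf4 was also lost without LPS array 1 (adjusted p = 0.0696) and after quantile normalization (adjusted p = 0.0508). Trib3 differed by -0.09 with an interval from -0.81 to 0.64, wide enough to hold a sizeable difference either way.

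**Figure D4:**
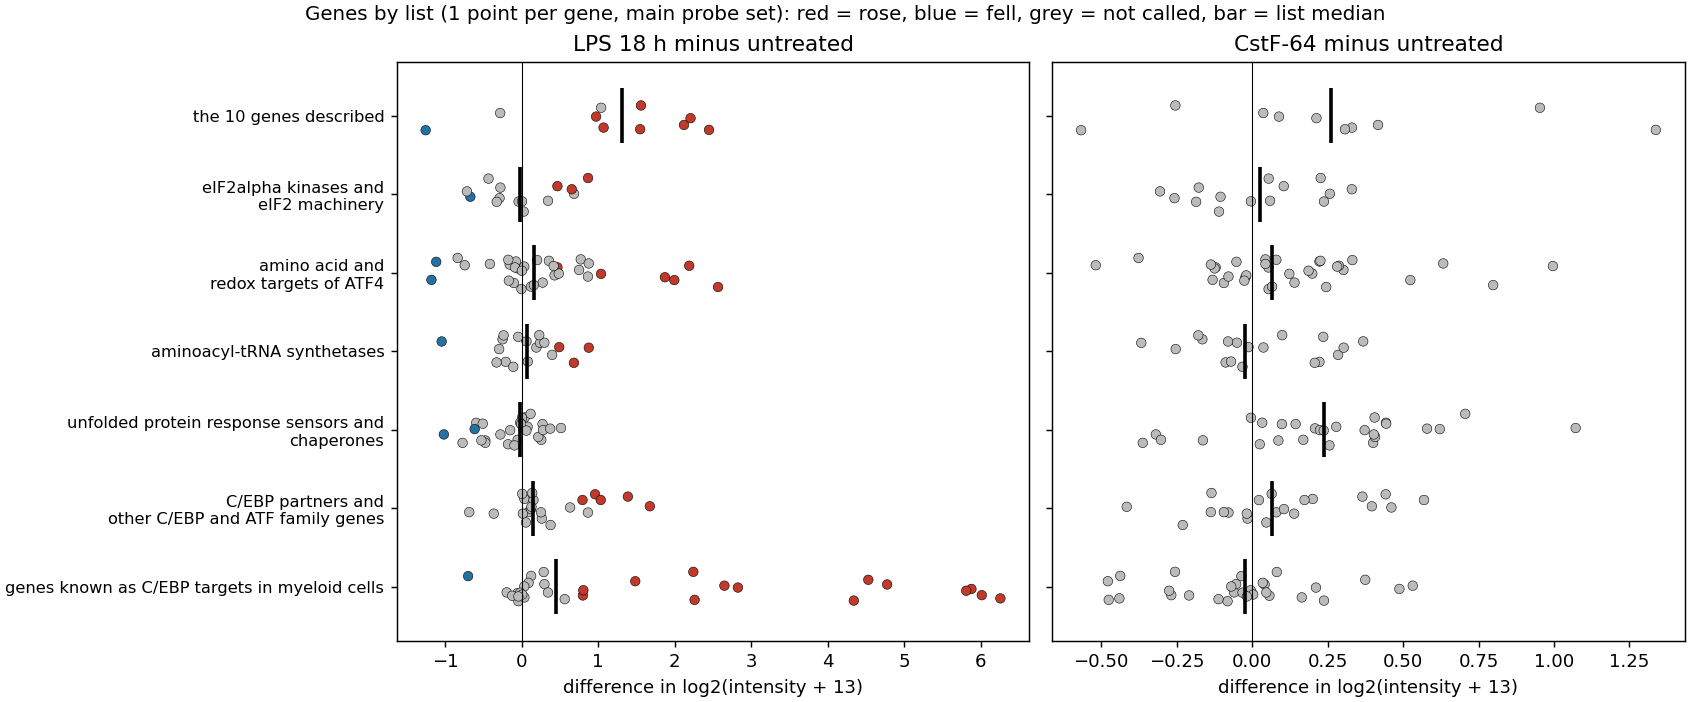
Difference in log2(intensity + 13) for each measured gene of the related lists (rows), after LPS at left and in the arrays labelled CstF-64 at right, on different horizontal scales. Points are genes by main probe set, red where called higher, blue where called lower and grey where not called, and black bars are list medians. The 10 genes described have a median of 1.31 after LPS, and the list medians lie between -0.02 and 0.45. All 10 are above the background limit on at least 1 array, while the C/EBP target list includes 10 genes with a mean below it and has a median of 2.25 over its other 20. That mean includes the LPS arrays, so genes could be among the 20 because LPS raised them.

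Lists of genes around this pathway were counted in the same way after LPS, where 6.67% of all named genes rose and 10.4% fell. Among 14 measured genes of the eIF2α kinases and the eIF2 machinery, 3 rose and 1 fell (median log2 -0.02). Nck1, an adaptor that helps keep eIF2α unphosphorylated, rose from 133.5 ± 5.30 to 254.3 ± 6.38 (SD, n = 3; log2 0.87, limma adjusted p = 0.000505), as did the eIF2 subunit Eif2s2 (0.47) and Eif2b2, a subunit of its exchange factor (0.66). Eif2ak3, the kinase PERK that senses stress in the endoplasmic reticulum, fell by 0.67 (limma adjusted p = 0.00646). Leaving out either untreated array 2 or LPS array 3 left 1 of these genes higher, and leaving out LPS array 2 made 2 lower. Quantile normalization, a fit to only the arrays compared and the mean over a gene's probe sets also left 1 higher. The filter on dim probe sets and the replicate number as a block also made 2 lower.

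Of 33 measured amino acid and redox genes known as ATF4 targets, 6 rose and 2 fell, with a median log2 change of 0.16. The cystine transporter Slc7a11 (80.6 ± 21.5 to 542.3 ± 135, log2 2.57), the stress protein gene Nupr1 (log2 2.19) and the haem oxygenase Hmox1 (log2 1.99) rose. The glutamine transporter Slc38a2 fell by 1.18, from 983.4 ± 62.3 to 432.6 ± 92.2 (limma adjusted p = 0.000571). Members of this list thus changed in opposite directions. Without untreated array 1, 9 rose, as they did after median centring, and without untreated array 2 or 3, 4 rose.

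Aminoacyl-tRNA synthetases, which charge tRNAs and include many ATF4 targets, gave 3 higher and 1 lower of 18 measured (median log2 0.07). The serine, asparagine and arginine enzymes Sars, Nars and Rars rose by 0.88, 0.68 and 0.49 on the log2 scale, and the valine enzyme Vars fell by 1.05. Without untreated array 2 or 3 or LPS array 2 or 3, 2 rose. Of 27 sensors and chaperones of the unfolded protein response, none rose and 2 fell (limma; 5 had an unadjusted p below 0.05; median log2 -0.02). The count that fell is close to the share of 10.4% over all named genes. The 2 genes were the sensor Atf6 (log2 -1.02, adjusted p = 0.00117) and Manf, a secreted endoplasmic reticulum protein (log2 -0.61, adjusted p = 0.0133). This split depended on the scaling: after median centring 2 rose and 1 fell, while after quantile normalization 0 rose and 3 fell. The filter on dim probe sets, the replicate number as a block and the mean over a gene's probe sets also gave 0 and 3. With untreated array 1 or LPS array 1 left out, 3 were lower. Leaving out untreated array 2 gave 1 higher and 1 lower, and leaving out untreated array 3 gave 1 lower.

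Among 21 measured partners and relatives of these factors, 5 rose and none fell (9 had an unadjusted p below 0.05; median log2 0.15). The 4 with the smallest adjusted p were the AP-1 genes Jund (log2 0.80), Junb (1.39) and Fosl2 (1.03) and the bZIP repressor Nfil3 (0.96). Without untreated array 2, 3 rose, and without LPS array 1, 1 also fell. Of 30 genes known as C/EBP targets in myeloid cells, 14 rose and 1 fell (median log2 0.45). This median was 2.25 over the 20 genes with a mean above the background limit, 0.26 with an added constant of 50 and 0.30 without LPS array 1. The mean behind that filter included the LPS arrays, so a gene at background in untreated cells could pass it by rising. The value of 2.25 is therefore not independent of the LPS change. Lcn2, the siderophore-binding lipocalin 2, rose at least 51.6-fold (bounded in the same way) to 1617 ± 200, and Il1b, Ptgs2 and Saa3 rose by 5.81, 5.88 and 4.78 on the log2 scale. The list holds several of the most LPS-responsive genes of macrophages and was assembled with earlier results of these data known, so its count does not show that C/EBP proteins act on them here.

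In the arrays labelled CstF-64 no gene of the 6 pathway lists was called by limma. At an unadjusted p below 0.05 there were 0 of the eIF2 list, 2 of the ATF4 target list, 1 synthetase, 7 of the unfolded protein response list, 1 of the partner list and 2 of the C/EBP target list, out of 14, 33, 18, 27, 21 and 30 measured. Over all named genes this share was 6.84%, and all of these lists except that of the unfolded protein response lie near or below it. The unfolded protein response list had a median log2 change of 0.24, against 0.01 for all named genes. Without untreated array 1 it was 0.08. Its lowest p-values belonged to Creld2 (log2 1.07, limma adjusted p = 0.0708) and Herpud1 (log2 0.71, limma adjusted p = 0.105). When only probe sets with a mean above the background limit were tested, 1 gene of this list was called, as higher. In the ATF4 target list the lowest p-value belonged to Stc2, a secreted stress-induced glycoprotein (57.2 ± 8.5 to 108.7 ± 6.67, log2 0.80, limma adjusted p = 0.155).

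Where a gene had several probe sets, their change was compared as well, since CstF-64 acts on mRNA 3' ends. Of the 5 genes concerned (Cebpb, Cebpd, Cebpg, Atf4 and Trib3) none was called in either comparison, by diffSplice, against 5.85% of 4956 genes after LPS and 0% in the arrays labelled CstF-64. After LPS the lowest unadjusted p by diffSplice were 0.00671 for Cebpd, 0.0128 for Atf4 and 0.019 for Cebpg. The tests of Atf4 and Cebpg each included a probe set that lay below the background limit on every array. In the arrays labelled CstF-64 the lowest unadjusted p was 0.189, for Cebpg.

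The genes whose pattern over the 9 arrays was most like that of 3 of these factors were sought among 7988 other genes with a mean above the background limit, by Pearson's r on the log2 scale. For Cebpb they were Tspo, a mitochondrial outer membrane protein (r = 0.993), Myc (0.988) and Oas3 (0.985). Myc read at most 27.6 in the untreated arrays, below the background limit. It passed the filter through its LPS arrays, at 344.3 to 471.1. For Ddit3 they were Zswim7 (0.961), Parp9 (0.957) and Vti1b (0.956). For Atf4 they were Chic2 (0.987), Prkx (0.976) and the stress gene Nupr1 (0.975). The points share the difference between LPS and the other arrays, so a high r is a description of these arrays. Among the 10 genes themselves, r with Ppp1r15a was 0.967 for Atf3, 0.954 for Atf4, 0.946 for Cebpb and -0.887 for Cebpa.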

How the data were processed

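The deposited table holds intensities on a linear scale, 1 per probe set and array, made with software that the sources used here do not name. Per the labels, RNA was isolated with the Ultraspec system. The values had been scaled: means after trimming 2% from each end were 150.05 to 150.06 on all arrays, with medians of 42.75 to 54.2. They were used as deposited. Of 22690 probe sets 64 were controls. Of the rest 20380 carried 1 gene, 691 several and 1555 none, by a platform annotation table updated to GRCm38.p6 symbols.

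Group means were estimated jointly from all 9 arrays (limma 3.58.1, R 4.3.3; eBayes with an intensity trend) on log2(intensity + 13), the constant being 0.25 of the median value of 50.2, rounded. Adjustment was Benjamini-Hochberg over 22626 probe sets, two-sided. The fit was tested on simulated data. With 3 arrays a group, their number limits the precision. No column repeated another.

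The 10 genes and all gene lists were chosen with earlier results of these data known. All 10 genes were named, with up to 4 called genes of a list by adjusted p (up to 2 where none was called), Cstf2 and the 3 genes most alike. Alternatives were other scalings, constants, filters, array sets and a replicate block.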

Additional observations from a re-analysis of the deposited data

How the results depend on the processing

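Alternatives covered scaling, the added constant, a filter on dim probe sets, the replicate block, the variance prior, the arrays in the fit, the mean of a gene's probe sets, and each array left out in turn. The count of 7 genes higher after LPS ranged from 5 to 8 over 15 alternatives, and the 6 genes lower in the arrays labelled CstF-64 than in LPS arrays from 4 to 7. The gene lower after LPS, Cebpa, was lost (0 genes) after median centring, quantile normalization, with the replicate block, with no intensity trend and with only the arrays compared. With 1 array left out this count ranged from 0 to 1, being 0 without any one untreated array or LPS array 1. In the arrays labelled CstF-64, 0 or 1 genes were higher with 1 array left out, the 1 being Ddit3 without untreated array 1. Over all probe sets, 110 were called against untreated without CstF-64 array 1, where 56 were called with all arrays. Without CstF-64 array 2 or 3 the counts were 24 and 20. Other causes were not tested. No sign change of a called value occurred in these settings. Whether the replicate numbers pair the arrays is not settled by these values. Deviations of same-numbered arrays correlated at -0.06 to 0.16 and those of other-numbered arrays at -0.24 to 0.20. Of 9 arrays 5 correlated best with their own number. With the replicate block, 7 genes rose after LPS, 0 fell (Cebpa adjusted p = 0.0706), 0 were called in the arrays labelled CstF-64 against untreated and 6 were lower against LPS; probe sets called in CstF-64 against untreated went from 56 to 32. Signal near background limits Cebpa on LPS array 1 and the dim probe sets of Cebpg and Atf4.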
